A study of Mus musculus with 54 samples.

Results

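The genes described here encode the proteins of the cytosolic ribosome, followed through Hi-C calls of mouse pancreatic cancer cells. They were chosen by symbol: protein-coding genes named Rps or Rpl followed by a digit, with Rpsa, Rplp0, Rplp1 and Rplp2 and without the Rps6k kinases. The rule found 91 of the 21631 protein-coding genes annotated on chromosomes 1 to 19 and X, 35 with small-subunit symbols and 56 with large-subunit symbols. By symbol, 77 of them were taken to bear the label. Paralogs were set aside by the end of their symbols alone, so the label may hold for some of those too. The other 14 were paralogs such as Rpl22l1, Rpl7l1, Rpl36al and Rpl10l, 2 genes with pseudogene names that are annotated as protein-coding (Rpl31-ps12 and Rpl34-ps1), the binding protein gene Rps19bp1 and the retroposed gene Rps23rg1. The rule also named the loops within 5 kb of a gene end and the distance to a border as the values to be read, and it was written with earlier values of these lists known. Loop counts, anchor distances and border distances are therefore given as a description, with no test.

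The resistant cells have the genotype label Gemcitabine resistant and were treated with Gemcitabine, a nucleoside analogue that stops DNA synthesis, in DMSO. The parental cells are labelled WT and received DMSO. Both are pancreatic cancer cells from a primary tumor of the mouse, with 3 Hi-C samples per condition. Resistance and the drug went together, so the lists cannot tell them apart. The drug is gemcitabine by the sample labels, used here, and doxorubicin by the series text on Hi-C. Each condition had 1 deposited loop list and 1 deposited domain list, so no value here has a replicate error. No RNA levels were used here, so neither the cell type's markers nor the output of the ribosomal protein genes could be read. The resistant list held 7169 loops and 4196 domains, and the parental list held 6829 loops and 3997 domains.

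The small ribosomal subunit reads the messenger RNA, and the large subunit forms the peptide bond and passes the chain through its exit tunnel. The proteins of both subunits are needed in near equal numbers, and their genes are scattered over the genome, short, and among the most transcribed of growing cells. Many of their messages start with a C followed by a run of pyrimidines, the terminal oligopyrimidine (TOP) tract, through which TOR signalling and the RNA-binding protein Larp1 control their translation. A Hi-C loop is a pair of distant DNA segments, the anchors, that were ligated more often than their surroundings. A topologically associating domain is a stretch that mostly contacts itself, bounded by borders.

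The promoters of 10 of these genes are shown because the results below turn on them, each as 70 bases before the annotated start and 30 from the start on. The sequences are those of RefSeq for GRCm38.p6, and the capitals mark the C-led pyrimidine run of at least 5 bases near the start. Rpl35 and Rpl7a of the large subunit, Rps26 of the small subunit and Rpl27a of the large subunit had a loop in both lists. Their stretches lie at chr2:39005102-39005201 (minus strand), chr2:26910737-26910836 (plus strand), chr10:128626477-128626576 (minus strand) and chr7:109519125-109519224 (plus strand).
Rpl35: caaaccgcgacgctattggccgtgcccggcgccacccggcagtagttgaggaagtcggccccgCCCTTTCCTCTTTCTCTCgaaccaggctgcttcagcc
Rpl7a: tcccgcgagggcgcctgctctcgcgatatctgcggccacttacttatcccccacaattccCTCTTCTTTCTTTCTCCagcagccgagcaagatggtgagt
Rps26: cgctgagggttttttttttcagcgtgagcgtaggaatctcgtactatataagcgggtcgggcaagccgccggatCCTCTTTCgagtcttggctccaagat
Rpl27a: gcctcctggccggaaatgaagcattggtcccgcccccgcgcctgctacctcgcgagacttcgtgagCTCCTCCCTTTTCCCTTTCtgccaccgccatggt
Rps21, Rps10, Rpl14 and Rpsa had a loop in the parental list only. They lie at chr2:180257309-180257408 (plus strand), chr17:27635215-27635314 (minus strand), chr9:120571447-120571546 (plus strand) and chr9:120127696-120127795 (plus strand), and Rpsa held no such run near its start.
Rps21: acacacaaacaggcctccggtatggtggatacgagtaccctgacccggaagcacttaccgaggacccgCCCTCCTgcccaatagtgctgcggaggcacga
Rps10: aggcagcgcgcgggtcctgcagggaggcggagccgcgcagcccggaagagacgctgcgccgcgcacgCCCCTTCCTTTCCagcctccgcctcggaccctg
Rpl14: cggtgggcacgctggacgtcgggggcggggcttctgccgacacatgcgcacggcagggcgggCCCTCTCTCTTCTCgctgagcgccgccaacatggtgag
Rpsa: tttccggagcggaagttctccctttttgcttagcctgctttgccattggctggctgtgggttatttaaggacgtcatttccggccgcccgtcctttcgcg
Rpl6 and Rpl36a had a loop in the resistant list only. They lie at chr5:121204431-121204530 (plus strand) and chrX:134585584-134585683 (plus strand).
Rpl6: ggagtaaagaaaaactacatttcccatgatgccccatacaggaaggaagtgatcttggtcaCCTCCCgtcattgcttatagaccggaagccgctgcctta
Rpl36a: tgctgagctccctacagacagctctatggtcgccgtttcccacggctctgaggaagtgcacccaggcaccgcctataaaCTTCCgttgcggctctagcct
Runs of this kind stood in genes of all 3 patterns, with 18 marked bases in Rpl35, 19 in Rpl27a, 14 in Rpl14 and 5 in Rpl36a.

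A promoter of 250 bases before to 50 bases after the start was at hand for 70 of the 91 genes, 27 small and 43 large. A TOP tract exactly at the annotated start, a C followed by at least 4 pyrimidines, was present in 14 of the 70, in 0 of 69 mitochondrial ribosomal protein promoters and in 2.19% of all 17274 promoters. Allowing such a run anywhere between 10 bases before and 15 bases after the start gave 40 of 70 (57.1%), against 43.5% of mitochondrial ribosomal protein promoters and 31.5% of all. The looser window thus took in over 2 times as many of the genes as the exact start. On either strand, the ETS-type word CCGGAAG was in 25 promoters (35.7%), against 34.8% of the mitochondrial group and 12.1% of all. The YY1-type word AAGATGGC, which can share AAG with it, was in 6 (8.57%), against 17.4% of the mitochondrial group and 3.23% of all. TATAAA was in 9 (12.9%), against 13.4% of all promoters. These matches describe letters only.

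The promoter words stood in genes with a loop and in genes without one, and no test was made between them. Of the 70 promoters, 29 belonged to genes with a loop in either list. CCGGAAG was in 12 of these (41.4%) and in 13 of the 41 without a loop (31.7%), and the pyrimidine run near the start was in 17 with a loop (58.6%) and 23 without (56.1%). The core of the binding motif of CTCF, a protein often found at loop anchors, was searched on both strands as CCA, AG and GGC in that order, with any 2 bases between them. It was in 0 of 29 promoters with a loop and 3 of 41 without (Rpl38, Rplp0 and Rps4x), and in 2.35% of all promoters. An anchor bin of 5 kb is far wider than these windows, so the anchors themselves were not read.

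Fewer ribosomal protein genes had a loop in the resistant list than in the parental list, and at this window the small subunit held 7 of the 8 fewer genes. A loop anchor lay within 5 kb of a gene end in 22 of 91 genes in the resistant list (24.2%, exact Clopper-Pearson 95% interval 15.8 to 34.3) and in 30 in the parental list (33.0%, 23.5 to 43.6). In the small subunit these were 4 of 35 genes in the resistant list (11.4%, 3.2 to 26.7) and 11 of 35 in the parental list (31.4%, 16.9 to 49.3). In the large subunit they were 18 of 56 in the resistant list (32.1%, 20.3 to 46.0) and 19 of 56 in the parental list (33.9%, 21.8 to 47.8). That split moved with the window: with gene ends inside the anchor bin the small subunit had 1 gene in the resistant list and 6 in the parental list, and the large subunit 4 in the resistant list and 9 in the parental list. At gene starts alone the large-subunit order turned, with 11 in the resistant list and 10 in the parental list. The intervals of the small-subunit shares overlap, cover counting error only, and do not allow for neighbouring genes that share an anchor.

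Over all protein-coding genes the share with a loop was 23.8% in the resistant list and 23.3% in the parental list, and among the 7742 genes of at most 10 kb it was 17.9% in the resistant list and also 17.9% in the parental list. The ribosomal protein genes are short, with a median length of 3175 bp against 17329 bp, and lie in denser stretches, with a median of 5 other genes within 100 kb against 3. The resistant share of all 91 was close to that of all genes, and the parental share lay above it, with an interval that starts just over the 23.3%. The small-subunit share in the resistant list lay below both backgrounds, and its interval includes both. Among the 78 mitochondrial ribosomal protein genes, which serve the separate ribosome of that organelle, 22 had a loop in the resistant list (28.2%) and 24 in the parental list (30.8%). With the paralogs, the binding protein, the retroposed gene and the pseudogene names left out, the 77 genes gave 17 in the resistant list (22.1%) and 26 in the parental list (33.8%). Of these the small subunit held 3 of 31 in the resistant list (9.68%) and 10 of 31 in the parental list (32.3%).

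**Figure D1:**
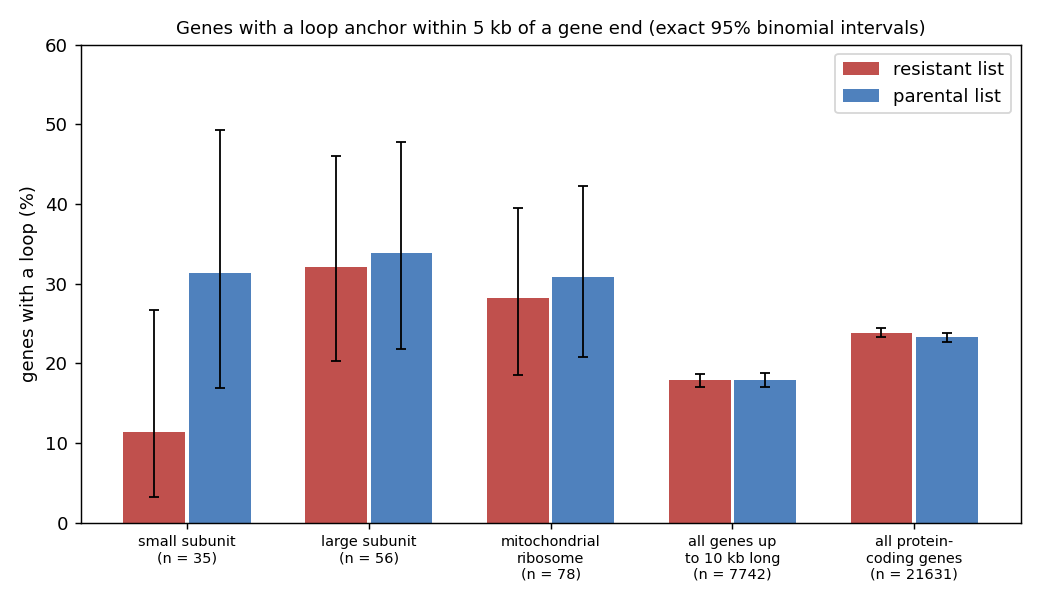
Share of genes with a loop anchor within 5 kb of a gene end (vertical axis, %), resistant list left and parental list right in each pair, with exact 95% binomial intervals as bars. The small-subunit pair stands at 11.4% in the resistant list and 31.4% in the parental list, while the other 4 pairs are nearly level.

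Gene by gene, 12 ribosomal protein genes had a loop in both lists, 10 in the resistant list only, 18 in the parental list only and 51 in neither. In the small subunit 3 had one in both lists, among them Rps14 and Rps26, mutated or lost in human anaemias of ribosome shortage. The resistant list alone gave 1, Rps19bp1, whose product binds Rps19 and is no ribosomal protein. The parental list alone gave 8: Rps10, Rps13, Rps20, Rps21, Rps27, Rps27a, Rpsa and Rps23rg1, the last a retroposed relative of Rps23. In the large subunit 9 had one in both lists, Rpl7, Rpl7a, Rpl7l1, Rpl19, Rpl22l1, Rpl27a, Rpl34-ps1 (a different loop in each list), Rpl35 and Rpl37a. The resistant list alone gave 9 (Rpl6, Rpl11, Rpl13, Rpl26, Rpl28, Rpl30, Rpl36a, Rpl36al and Rpl41), and the parental list alone gave 10, among them Rpl3, Rpl4, Rpl9, Rpl14, Rpl18, Rpl21, Rpl34, Rplp1 and Rplp2. More resistant-only than parental-only loops were held by 9 of 91 genes (9.89%, against 11.8% of all genes), and more parental-only than resistant-only loops by 19 (20.9%, against 11.3% of all genes).

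**Figure D2:**
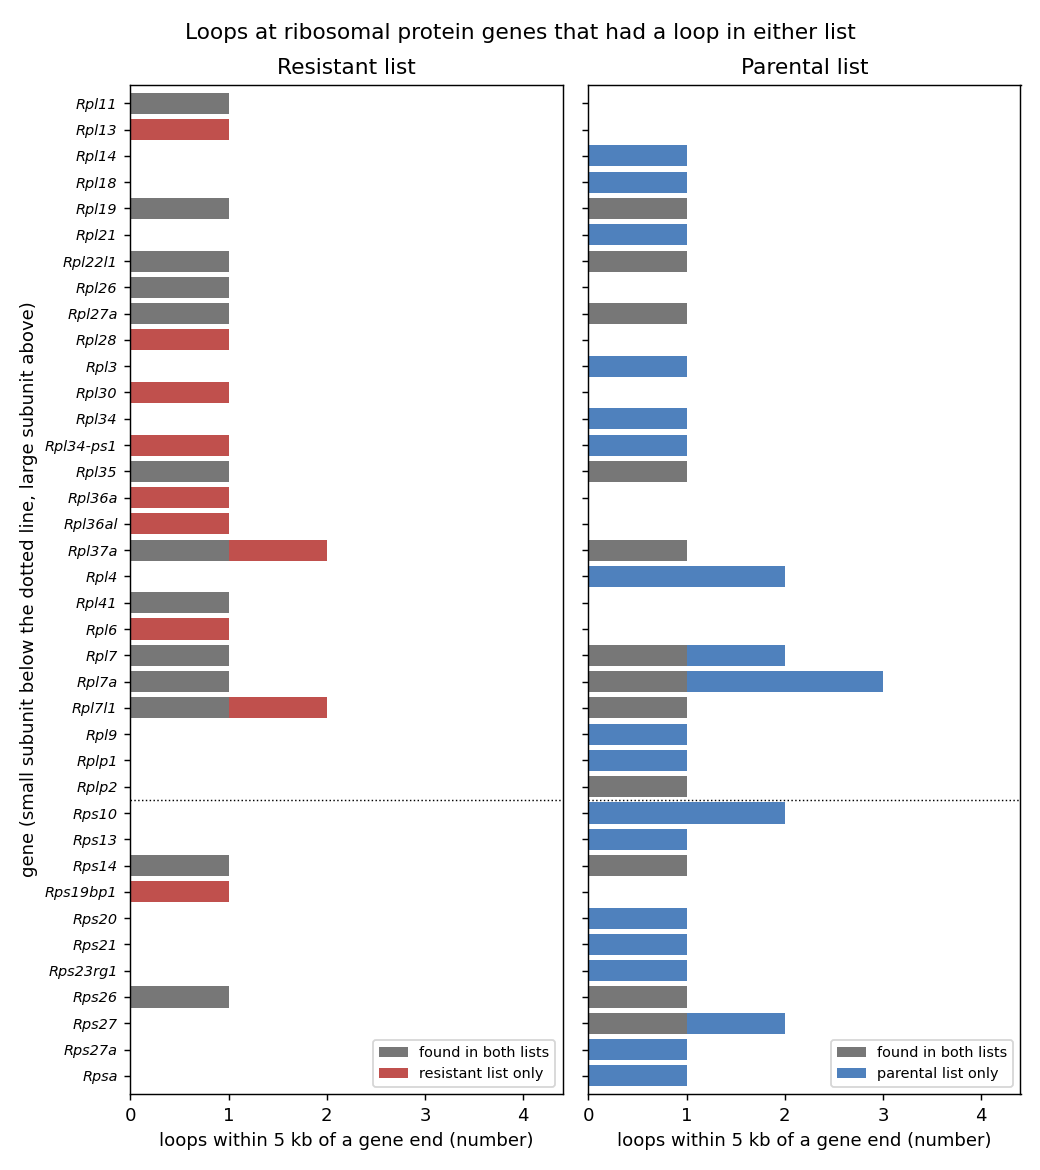
Number of loops within 5 kb of a gene end (horizontal axis) for 38 of the 40 ribosomal protein genes with a loop in either list, resistant list left and parental list right. Grey marks loops found in both lists, red resistant-only and blue parental-only loops; below the dotted line, the small subunit, blue bars stand at 8 genes and a red bar at 1.

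The 91 genes took part in 24 loops of the resistant list and 37 of the parental list. A loop was called found in both lists when both of its anchors had a counterpart, at most 10 kb off, in 1 loop of the other list. This was so for 14 of the 24 resistant loops (58.3%, 36.6 to 77.9) and 13 of the 37 parental loops (35.1%, 20.2 to 52.5), against 44.8% of the 3729 resistant and 46.2% of the 3613 parental loops at any protein-coding gene. The gene-level differences are in part a matter of the 5 kb line. The resistant loops at Rpl11, Rpl26 and Rpl41 had a partner in the parental list whose anchor fell outside 5 kb. It lay at 11.6 kb from Rpl11 and 5.47 kb from Rpl26. For Rpl41 the partner's anchor bin began at position 128535001, and the gene begins at 128548110. The parental loops at Rplp2 and Rps27 likewise had a partner in the resistant list at 7.65 and 6.35 kb. The small subunit held 4 loops in the resistant list, 1 of them resistant-only, and 13 in the parental list, 9 of them parental-only. The large subunit held 20 in the resistant list, 9 resistant-only, and 24 in the parental list, 15 parental-only.

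Several members lay close to the line on either side. In the resistant list, 8 genes had their nearest anchor between 2.5 and 5 kb, the outermost being Rps14 at 4.6 kb and Rpl34-ps1 at 5.0 kb, and 7 lay between 5 and 7.5 kb, among them Rpl22 at 5.92, Rps27 at 6.35, Rps13 at 6.51 and Rpl34 at 6.83 kb. In the parental list, 6 lay just inside, up to Rps14 at 4.6 kb, and 10 just outside, among them Rpl26 at 5.47, Rpl30 at 5.5, Rps19bp1 at 5.61, Rpl6 at 5.76 and Rpl41 at 5.83 kb. The distance itself needs no line. The median distance to the nearest anchor was 23.1 kb (quartiles 10.7 and 142) in the resistant list and 12.7 kb (2.56 and 44.1) in the parental list for the small subunit, and for the large subunit 11.1 kb (2.71 and 43.7) in the resistant list and 9.3 kb (1.59 and 76.2) in the parental list. Over all genes it was 28.8 kb in the resistant list and 29.8 kb in the parental list.

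Among the 8 small-subunit genes with a loop in the parental list only, the nearest resistant anchor was at a median of 15.7 kb, and in 3 of them it was within 10 kb. Rps27a, which encodes ubiquitin fused to a ribosomal protein, stood far out at 436 kb, and Rps20 at 89.3 kb. Genes with no loop in either list also differed. The nearest anchor to Rps7 was at 1039 kb in the resistant list and 74.0 kb in the parental list. For Rps6, the target of the S6 kinases, it was at 244 kb in the resistant list and 22.6 kb in the parental list. Rps23 and Rps9 went the other way, with 170 and 203 kb in the resistant list against 445 and 458 kb in the parental list. These 4 genes were picked after their values were seen.

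**Figure D3:**
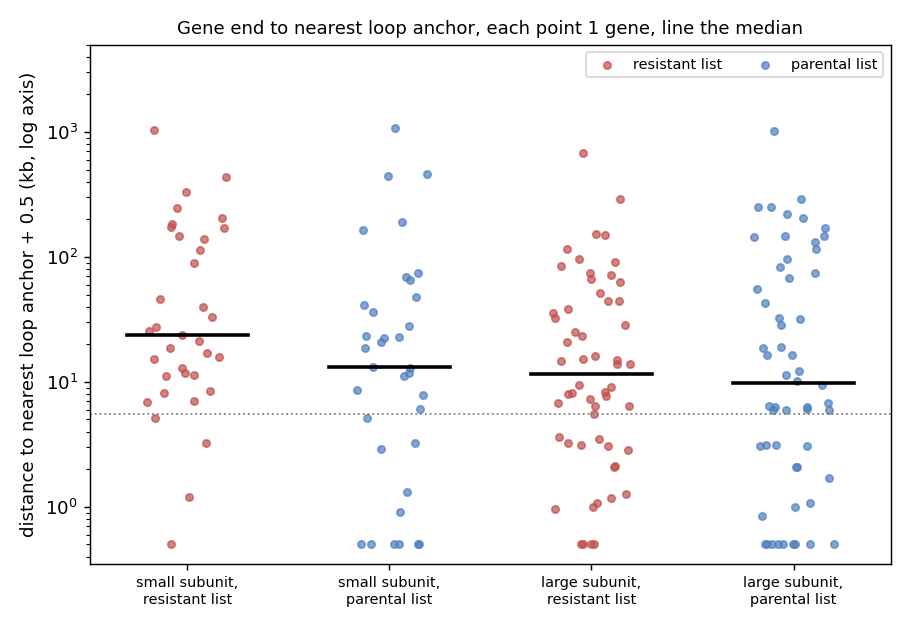
Distance from a gene end to the nearest loop anchor (kb, log axis, 0.5 kb added so that 0 can be drawn), 1 point per ribosomal protein gene, resistant list left of parental list within each subunit. Black lines are medians, which for the small subunit stand at 23.1 kb in the resistant list and 12.7 kb in the parental list, and the dotted line marks the 5 kb limit.

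The loops found in both lists tied ribosomal protein genes to neighbours of many kinds. Rpl35, at the mouth of the exit tunnel, had a loop of 70 kb to an anchor at Nr6a1 and Olfml2a. Every p given for a loop is that of the authors' caller for a single loop within its own list, and no test between the lists. For Rpl35 it was 1.53e-07 in the resistant list and 9.65e-11 in the parental list, where it ranked 47 of 6829. Rps26 had a loop of 45 kb to Rab5b and Suox, with p of 2.96e-08 in the resistant list and 6.99e-06 in the parental list. Ikzf4 had an end at both anchors of that loop. Rps14 had a loop of 55 kb with p of 3.82e-08 in the resistant list and 3.3e-08 in the parental list, and no other protein-coding gene stood at either anchor. Thus the p was lower in the resistant list for Rps26, lower in the parental list for Rpl35, and nearly equal for Rps14.

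Further shared loops were those of Rpl37a to Igfbp2 and Igfbp5, insulin-like growth factor binding proteins (135 kb, p of 3.36e-07 in the resistant list and 7.72e-07 in the parental list). Rpl7l1, a paralog with a part in ribosome assembly, had one to Bicral and Tbcc of 100 kb in the resistant list (p of 3.59e-07) and 105 kb in the parental list (p of 3.47e-07). Rpl19 reached Fbxl20 over 45 kb, with p of 2.39e-05 in the resistant list and 3.15e-06 in the parental list. No protein-coding gene end stood at the far anchor of the shared loops of Rpl7 (195 kb, p of 4.67e-05 in the resistant list and 1.53e-06 in the parental list), Rpl7a (260 kb, 1.34e-06 in the resistant list and 4.54e-07 in the parental list), Rpl22l1 (155 kb, 4.3e-06 in the resistant list and 1.7e-08 in the parental list) and Rpl27a (90 kb, 0.00137, in the resistant list and 95 kb, 5.66e-05, in the parental list).

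Loops whose partner fell outside the gene window in the other list were of the same kind. Rpl11, which with Rpl5 binds Mdm2 when ribosome assembly is disturbed, was joined to the cell cycle factor gene E2f2 over 140 kb in the resistant list (p of 4.67e-05), and the partner in the parental list had p of 0.000313. Rpl26, which sits near the exit tunnel, was joined to Pfas and Rangrf over 75 kb in the resistant list (p of 1.34e-06, partner 4.7e-07). Rpl41 was joined to Nabp2 and Rnf41 over 130 kb in the resistant list (p of 0.000509, partner 0.00192). In the parental list Rplp2, a protein of the stalk that recruits elongation factors, was joined to Gatd1 and Taldo1 over 35 kb (p of 2.39e-07, partner in the resistant list 1.42e-07). Rps27 had a loop of 155 kb (p of 3.15e-06, partner in the resistant list 2.53e-05). For these 5 genes the loop was thus listed in both conditions and the listed anchor bins stood up to 10 kb apart.

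The 10 resistant-only loops were mostly at large-subunit genes. Rpl6 was joined to Trafd1 over 165 kb (p of 5.83e-06) and Rpl13 to Chmp1a and Dpep1 over 95 kb (p of 7.42e-06). On the X chromosome Rpl36a was joined to Timm8a1 over 45 kb (p of 1.64e-05), with Btk at both anchors. Rpl28 was joined to the histone methyltransferase gene Kmt5c over 45 kb (p of 4.42e-05). Rpl30 had one of 340 kb (p of 3.08e-05) and Rpl34-ps1 one of 325 kb (p of 2.38e-06), both with no gene end at the far anchor. Rpl37a and Rpl7l1 each had a second loop beside the shared one, to Tmem169 and the DNA repair gene Xrcc5 over 405 kb (p of 3.44e-05) and to Cnpy3 over 25 kb (p of 2.83e-05). Rps19bp1 was joined to Fam83f over 435 kb (p of 7.82e-08). The last, at Rpl36al, spanned 5 kb with p of 0.015, the weakest of the 24.

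The 24 parental-only loops included 9 at small-subunit genes. Rps21 was joined to Adrm1, a ubiquitin receptor of the proteasome, and Lama5 over 75 kb (chr2:180175001-180180000 to chr2:180250001-180255000, p of 1.57e-09, rank 213 of 6829). Rps10 had 2, of 60 kb to Hmga1, a chromatin protein gene (p of 2.46e-06), and of 90 kb (p of 1.51e-05). Rps27a was joined to Rtn4 over 145 kb (p of 2.67e-05), and Rps13 had one of 105 kb with Pik3c2a at both anchors (p of 4.42e-05). For Rps10, Rps21 and Rps27a neither anchor was in use in the resistant list, where in use means that an anchor of that list lay within 10 kb. The others were weaker, with Rps20 at 85 kb and p of 0.000313, Rps23rg1 at 105 kb and p of 0.000497, Rpsa at 15 kb and p of 0.000691, and Rps27 at 80 kb and p of 0.00207, the last to Gatad2b. For Rpsa, too, neither anchor was in use in the resistant list.

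At the large subunit, Rpl14 was joined to the initiation factor gene Eif1b over 75 kb in the parental list only (p of 1.05e-08), and Rplp1, the partner of Rplp2 in the stalk, to the far end of its neighbour Kif23 over 25 kb (p of 2.46e-08). Rpl7 had a parental-only loop to Stau2, an RNA-binding protein gene, over 125 kb (p of 4.74e-08) beside its shared one. Rpl4 of the exit tunnel had 2, of 95 kb (p of 5.01e-06) and 40 kb (p of 5.16e-06). Rpl7a had 3 loops in the parental list, 2 of them parental-only, of 310 kb to Agpat2 (p of 3.57e-06) and of 5 kb (p of 0.0479). Rpl9 was joined to Rfc1 over 50 kb (p of 8.12e-06), and Rpl3, which lies near the peptidyl transferase centre, to Mgat3 over 135 kb (p of 0.000106). Weaker ones were at Rpl21, Rpl34, Rpl34-ps1 and Rpl18, with p between 0.000485 and 0.0431.

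As a set, these loops were ordinary in length, and their median p was lower than that of loops at any protein-coding gene. The median span was 115 kb (5 to 435) in the resistant list and 85 kb (5 to 465) in the parental list, against 110 kb over all loops of either list. The stronger part of each list, the 3584 resistant and 3414 parental loops of lowest p, held 20 of the 24 resistant and 28 of the 37 parental loops. Their median p was 1.19e-05 in the resistant list and 5.16e-06 in the parental list, against 3.08e-05 in the resistant list and 2.99e-05 in the parental list over loops at any protein-coding gene. Over all loops the median p of the caller was higher, 0.000155 in the resistant list and 0.000119 in the parental list. Loops at genes thus tend to the stronger part anyway, and how many of them it held was not counted. The far anchor held another protein-coding gene end in 17 of 24 resistant loops (70.8%) and 22 of 37 parental loops (59.5%). Of all loops at genes, 31.4% in the resistant list and 32.5% in the parental list had genes at both anchors. That share counts every loop with a gene at either anchor. It is thus a different measure and no background for the far-anchor shares, for which none was computed. The anchor at the ribosomal protein gene was itself shared with another gene in 15 loops of the resistant list and 29 of the parental list, and for those the lists do not say which gene the loop belongs to.

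Condition-specific loops did not always mean a new anchor. Of the 10 resistant-only loops, 5 had the ribosomal protein gene's anchor in use for another loop in the parental list, and 4 had neither anchor in use there. Of the 24 parental-only loops, 7 had that anchor in use in the resistant list and 11 had neither. An anchor up to 10 kb off was taken as the same one. The same shares over all condition-specific loops were not computed, so these counts have no background. Ribosomal protein genes were seldom enclosed by a loop, 11 in the resistant list (12.1%) and 13 in the parental list (14.3%), against 24.8% of all genes in the resistant list and 24.9% in the parental list. Within domains lay 22 of the 24 resistant and 34 of the 37 parental loops, while 2 resistant (8.33%) and 3 parental loops (8.11%) crossed a border. Of all loops 6.22% did so in the resistant list and 5.84% in the parental list.

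The median distance to a domain border was shorter for ribosomal protein genes than for protein-coding genes at large in both lists. The median distance from gene body to nearest border was 54.7 kb (quartiles 4.82 and 140) in the resistant list and 65.7 kb (8.51 and 155) in the parental list. Over all genes it was 87.7 kb in the resistant list and 91.5 kb in the parental list, and over genes of at most 10 kb it was 117 kb in the resistant list and 125 kb in the parental list. With only the domains above the median score the order of the lists turned, with 135 kb in the resistant list and 122 kb in the parental list. A border stood within 20 kb of 35 genes in the resistant list (38.5%, 28.4 to 49.2) and of 29 in the parental list (31.9%, 22.5 to 42.5), against 21.9% of all genes in the resistant list and 20.8% in the parental list. The small subunit had 16 of 35 in the resistant list (45.7%) and 14 of 35 in the parental list (40.0%), and the large subunit 19 of 56 in the resistant list (33.9%) and 15 of 56 in the parental list (26.8%). The share was 29.5% in the resistant list and 32.1% in the parental list for mitochondrial ribosomal protein genes, and 37.3% in the resistant list and 41.2% in the parental list for translation factor genes.

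Borders near these genes mostly stood at the same position in both lists. The nearest border had the same position for 59 of the 91 genes (64.8%, against 53.0% of all genes), lay up to 20 kb away for 14, and over 20 kb away for 18. It was nearer in the resistant list for 23 genes (25.3%, against 25.1% of all genes) and nearer in the parental list for 9 (9.89%, against 20.2% of all genes). A border lay inside Rpl7l1, Rpl9, Rpl17, Rps2, Rps3, Rps3a1 and Rps25 in both lists, inside Rpl27a and Rpl37rt in the resistant list only, and inside Rpl22 in the parental list only. The products of Rps2 and Rps3 sit together at the messenger RNA entry of the small subunit. A border bin is 10 kb wide, which is longer than most of these genes.

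The 5 genes with the largest difference moved both ways. Rpl10l, a testis paralog of Rpl10, was 1110 kb from a border in the resistant list and 23.4 kb in the parental list. Rps27rt was at 242 kb in the resistant list and 12.4 kb in the parental list. Nearer in the resistant list were Rps9 (303 kb, against 813 kb in the parental list), Rpl37rt (0 kb, against 380 kb) and Rps18 (2.0 kb, against 332 kb). Rps9 lay in no domain of either list. Also far from a border were Rps27a (306 kb in the resistant list, 416 kb in the parental list) and Rpl7 (301 kb in each), and in the resistant list Rpl28 (305 kb). Outside the rule and picked after the values were seen, the other genes that differed by at least 80 kb went both ways. Rpl35 was at 4.87 kb in the resistant list and 225 kb in the parental list, Rpl39 at 4.78 kb, against 155 kb in the parental list, Rps21 at 1.56 kb, against 137 kb, and Rps6 at 2.63 kb, against 82.6 kb. Farther in the resistant list were Rpl22, at 116 kb, against 0 kb in the parental list, and Rps19, at 180 kb, against 100.2 kb. For Rps21 the border close to the gene in the resistant list stood beside the loop to Adrm1 and Lama5 that was listed in the parental list only. For Rpl35 the loop was in both lists while the border was not.

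**Figure D4:**
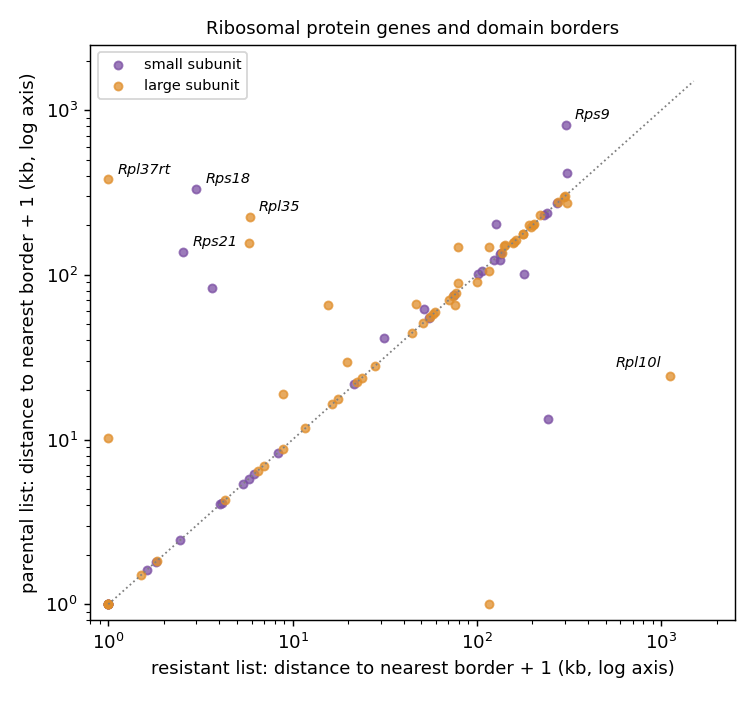
Distance of each ribosomal protein gene to its nearest domain border in the resistant list (horizontal axis) and the parental list (vertical axis), both in kb on log axes with 1 kb added. Most points lie on the dotted line of equal distance; Rpl37rt, Rps18, Rps21 and Rpl35 lie above it, nearer a border in the resistant list, and Rpl10l lies far below it.

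Domains that held 2 or more ribosomal protein genes numbered 4 in the resistant list and 5 in the parental list. How many an equal number of other genes would share was not computed. The 90 genes inside a domain fell in 86 domains of the resistant list and 85 of the parental list. Rpl14 and Rpsa shared a domain of 700 kb at chr9:119890001-120590000 in both, and Rpl3l, a muscle paralog of Rpl3, shared one of 180 kb with Rps2 at chr17:24720001-24900000 in both. Rpl19 and Rpl23 shared one of 550 kb in the resistant list and 630 kb in the parental list. Rps18 and Rps28 shared a 950 kb domain with 46 genes at chr17:33620001-34570000 in the parental list only. In the resistant list a border at position 33950000, between the 2 genes, was the nearest to both. The domains of ribosomal protein genes had a median size of 555 kb in the resistant list and 560 kb in the parental list, against 540 kb in the resistant list and 550 kb in the parental list over all genes. They held a median of 11 genes in the resistant list and 11.5 in the parental list, against 9 over all genes in each.

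In other groups of protein synthesis genes, the number of genes with a loop was higher, equal or slightly lower in the resistant list. Distinct loops of the mitochondrial group numbered 24 in the resistant list and 29 in the parental list. In the same order they numbered 17 and 18 for translation factors, 5 and 6 for S6 kinase and TOR, and 23 and 20 for ribosome biogenesis. Of 59 ribosome biogenesis genes 21 had a loop in the resistant list (35.6%) and 16 in the parental list (27.1%), with Wdr75 at 2 loops and Bysl and Dkc1 at 1 in each list, and Gnl2 at 1 loop in the resistant list and 2 in the parental list. Of 51 translation factor genes 15 had one in the resistant list (29.4%) and 12 in the parental list (23.5%). Among them Eif4b, which assists the cap-binding helicase, had 2 loops in the resistant list and 3 in the parental list. Eif1b had 1 in the resistant list and 3 in the parental list, Eif3l 1 in the resistant list and 2 in the parental list, and the release factor gene Etf1 0 in the resistant list and 3 in the parental list. Of 21 S6 kinase and TOR pathway genes 5 had a loop in the resistant list and 5 in the parental list (23.8% in each). Mlst8 had 1 resistant-only loop, and Larp4 had 1 resistant loop whose partner in the parental list was not within 5 kb of it. Deptor had 1 in each list, a different loop in each, and Rps6kl1 had 2 in the parental list only. Of the mitochondrial group, Mrpl22, Mrpl53 and Mrps21 had 1 loop in the resistant list and 2 in the parental list, and Mrpl42 had 2 in the resistant list and 1 in the parental list. Among ribosomal proteins with other symbols, Fau, which encodes a small-subunit protein fused to a ubiquitin-like one, had a loop in the resistant list only, and Rack1 had none in either list. Whether the small-subunit difference departs from these groups was not tested.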

How the data were processed

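Hi-C libraries were made, per the labels' protocols, from cells cross-linked for 10 min with 1% formaldehyde, by DpnII digestion, biotin fill-in and ligation. The submitters' processing notes name BWA and the builds mm10 and hg19. Not given in the sources used here were the loop caller, the domain caller, their settings, the read depth and any pooling of replicates. Depth is therefore unknown. Per the file headers, each loop (5 kb bins) carries a p-value from the authors' caller, at most 0.0497 in the deposited lists, and each domain (10 kb bins) a separation score of unstated scale, used only to rank domains. The other 48 of 54 samples were not analysed here.

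Gene coordinates and promoters are from RefSeq for GRCm38.p6, the assembly of mm10, and coordinates count from 1. Genes took the loops with an anchor bin at most 5 kb from either gene end. Border distances ran from the gene body and were 0 where a border lay inside. Strand and start were known for 70 of 91 genes. Shares have exact Clopper-Pearson 95% intervals, which cover counting error only. No test was made, since each condition has 1 list. The members and gene lists were chosen with earlier results of these data known. Of 61 ribosome biogenesis genes listed, 59 were in the annotation.

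Named by rule were every gene with a loop, loop by loop where it was found in both lists, was 1 of 2 or more, or was in the stronger part of its list; the 5 nearest, 5 farthest and 5 most different genes for borders; domains with 2 or more members; and up to 4 genes per other list. Some of the genes the rule took are left out of the text and of the plot of loops by gene, but stay in every count. Because more than 5 genes had a border inside them, all of those are named. Alternatives were other gene windows, gene starts, gene bodies, matching tolerances, stricter or equal lists, spans over 15 kb, and narrower membership. The scripts were first tested on simulated data. Python 3.11.15, pandas 2.3.3, numpy 2.4.6, scipy 1.17.1 and matplotlib 3.10.9 were used.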

Additional observations from a re-analysis of the deposited data

How the results depend on the processing

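Of 104 alternatives to the counts and border distances, 73 stayed within 1.5 times of the reported count, or within the interval of the reported median, and 31 moved, many of them with the width of the gene window. With gene ends inside the anchor bin (0 kb), 5 genes in the resistant list and 15 in the parental list had a loop, with 3 resistant-only, 13 parental-only and 2 shared loops. With 10 kb they were 36 genes in the resistant list and 43 in the parental list, with 18 resistant-only, 39 parental-only and 25 shared loops. With gene starts only, 13 genes in the resistant list and 15 in the parental list had a loop, with 6 resistant-only, 12 parental-only and 8 shared loops, over the 70 genes with a known start, of which 17 in the resistant list and 20 in the parental list had a loop at either end. The small-subunit count was lower in the resistant than in the parental list under each alternative run, with 1 against 6 genes at 0 kb, 8 against 14 at 10 kb, 2 against 5 at gene starts, 3 against 8 in the stronger part of each list and 4 against 11 in lists of equal length. The large-subunit count was not stable in direction, with 4 against 9 genes at 0 kb, 28 against 29 at 10 kb, 11 against 10 at gene starts and 15 against 15 in the stronger part of each list. Identical bins left 9 shared loops, and the 77 genes left 6 resistant-only loops. The median border distance was 135 kb in the resistant list and 122 kb in the parental list with only the domains above the median score, and 122 kb in the resistant list and 151 kb in the parental list with only those below it. The order of the lists was thus not stable, and fewer borders lengthen every distance. The 77-gene and lowest-score settings were chosen after seeing the data. No paired analysis was possible because each condition has 1 list. Read depth, which sets how many weak loops are listed, is unknown, and its part in the difference was not tested.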

Other observations

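Chromosome 9, picked after the values were seen, held 8 of the 91 ribosomal protein genes. None of the 8 had a loop in the resistant list, and 4 had one in the parental list, Rpl4, Rplp1, Rpsa and Rpl14. Of all protein-coding genes of that chromosome, 23.7% had one in the resistant list and 24.1% in the parental list. On chromosomes 10 and 15, with 5 members each, 2 had a loop in the resistant list and 1 in the parental list, and on chromosomes 12 and X, with 4 each, 1 had one in the resistant list and 0 in the parental list. The shares over all genes, resistant list first, were 23.4% and 22.8% on chromosome 10 and 28.7% and 28.2% on chromosome 15. They were 21.4% and 23.3% on chromosome 12 and 11.0% and 6.83% on chromosome X. With so few members per chromosome these counts show no pattern. No test was made over chromosomes.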
